A study of Mus musculus with 8 samples.

Results

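Six-family and Eya genes were examined in the cardiac outflow tract of mouse embryos that cannot make retinoic acid through Raldh2. The set held Six2, Six4, Six5, Eya1, Eya2, Eya3 and Eya4, taken by gene name from the array: 7 genes of 36518 gene names, measured by 8 probes. Six2 had a pair of probes and each other gene had 1. RNA came from outflow tracts, the vessel through which blood leaves the embryonic heart, dissected at E10.5 and combined in pools of 4 tracts. There were 4 pools of Raldh2-/- embryos (called knockout pools 1, 2, 3 and 7) and 4 pools of WT embryos (called wild type pools 1, 2, 5 and 7), described as littermates. All dams, of both groups, had eaten food with 0.1 mg/g all-trans-retinoic acid between E7.5 and E8.5, so both groups had received the early rescue and neither is an untreated embryo. Raldh2, now named Aldh1a2, makes retinoic acid from retinaldehyde.

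Six-family proteins are transcription factors that bind DNA through a homeodomain and a Six-type domain beside it. Eya proteins do not bind DNA themselves. They enter the nucleus with Six-family proteins, act as coactivators and carry a phosphatase domain. Together with Pax and Dach proteins they form a network first worked out in the insect eye, which in mammals acts in ear, kidney, muscle and the pharyngeal region next to the outflow tract.

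No Six-family or Eya gene passed the test between knockout and wild type pools. Six2 had the largest difference, with a mean 3.19-fold higher in the knockout pools, but its pools overlapped. Its second probe, which was dim, had no such difference. Eya3 was the member whose 4 knockout pools all lay above the 4 wild type pools, a separation that 5.49% of all genes had in one direction or the other. Eya2 varied 14.5-fold between knockout pools and more between wild type pools. The Eya1 probe ends in a GT repeat, and its values are given as those of the probe.

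The probes are shown first, because the Eya1 probe carries a repeat and the Six2 probes gave different results. The array carries 60-base probes placed on mm9, and the second part of a probe, its bases 31 to 60, is given 5′ to 3′ with any run of alternating G and T of at least 20 bases in capitals. For Eya1 (minus strand, chr1:14159982-14160011) and for each Six2 probe (minus strand, chr17:86083634-86083663 and chr17:86083986-86084015) they read as follows.
Eya1: GTGTGTGTGTGTGTGTGTGTGTGTGTGTGT
Six2: gggagatatttctgcttttattttataata
Six2 second probe: tttctaagagtccgacgtgatgtgaacgga
Whether a probe lies in an exon or a UTR was not looked up, as no mm9 annotation was used here. The Eya1 probe ends in a GT run of 34 bases, while the longest such run in the other 7 member probes was 4 bases.

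The Eya1 probe was followed beside the 51 other probes on the array with a GT run of at least 20 bases, which belong to many unrelated genes. Values here are log2 processed signals relative to the 75th percentile of the array, so 0 is that percentile. The knockout pools are listed in the order 1, 2, 3, 7 and the wild type pools in the order 1, 2, 5, 7 wherever 4 values are given. The Eya1 probe read 5.24, 5.35, 5.13 and 5.37 in the knockouts and 3.66, 5.50, 5.10 and 5.71 in the wild types. The median of the 51 others was 5.38, 5.52, 5.18 and 5.59 in the knockouts and 3.75, 5.58, 5.14 and 5.66 in the wild types. Levels of different probes are not comparable, so the pattern over pools was compared instead, after subtracting each probe's own mean, leaving wild type pool 1 aside. The mean absolute difference from the Eya1 probe was 0.013 to 0.16 over the 51 repeat probes, with a median of 0.064, against a median of 0.25 over all genes.

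The genes whose pattern over the same 7 arrays was most like it were Wdr89 and Srek1, among 16204 genes compared. Their probes carry GT runs of 28 and 30 bases, and their second parts are shown because they are nearly the same letters (minus strands of chr12:76731767-76731796 and chr13:104531985-104532014).
Wdr89: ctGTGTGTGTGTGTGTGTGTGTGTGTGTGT
Srek1: GTGTGTGTGTGTGTGTGTGTGTGTGTGTGT
The mean absolute difference of centred log2 values from the Eya1 probe was 0.013 for Wdr89 and 0.029 for Srek1. How much of the signal came from the Eya1 transcript was not tested, and the probe is kept in the counts under the name the array gives it.

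**Figure D1:**
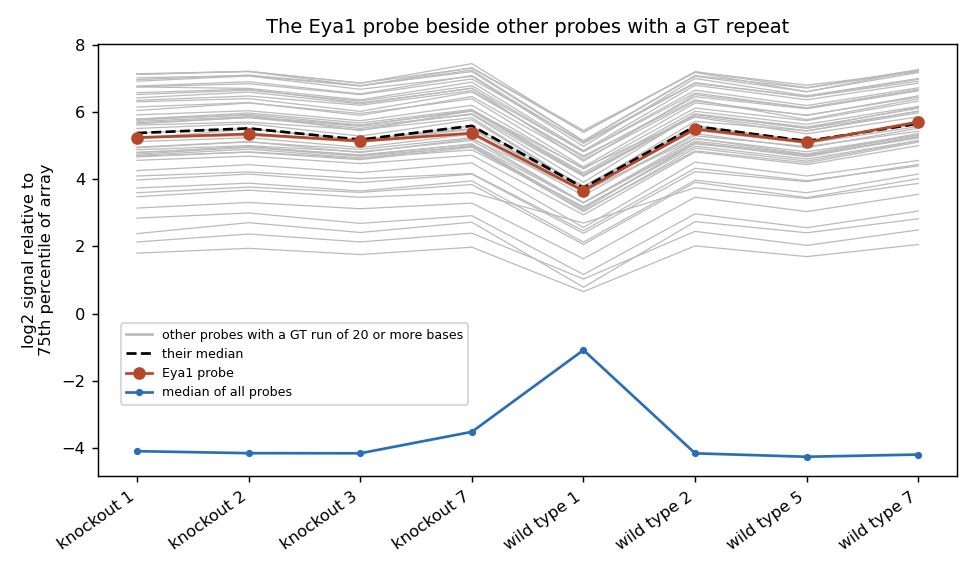
Signal on a log2 axis with the 75th percentile of each array at 0 (vertical axis) in each pool (horizontal axis) for the Eya1 probe, the 51 other probes with a GT run of at least 20 bases (grey), their median (dashed) and the median of all probes (blue). The line of the Eya1 probe and the grey lines dip together in wild type pool 1, where bright probes in general read low. The median of all probes is highest there, and heights of different probes are not compared.

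The first wild type pool gave an array unlike the rest. It had 94.7% of spots well above background, against 53.3% to 63.2% on the other 7, and a median processed signal of 2023 against 40.0 to 83.0. Bright probes read low and dim probes read high on it: it was the lowest of the 8 arrays for 98.3% of probes with a mean log2 value above 1 on the others, and the highest for 84.7% of those below -1. The member probes did the same. Wild type pool 1 was the lowest of 8 pools for Six5, Eya1 and Eya3, and the highest for Eya4 and the second Six2 probe. All comparisons are therefore given with and without that pool. Aldh1a2, the targeted gene, had 0.059 to 2.02 in the knockout pools and 1.92 to 3.65 in the wild type pools, overlapping with 8 arrays and not overlapping without wild type pool 1. Of 8 heart muscle markers, all 8 were well above background on the 7 other arrays. Row 1 of the slide held every knockout array and row 2 every wild type array, so slide row and genotype cannot be told apart. No label says that pools came from separate litters, so p-values measure only the spread between these pools, which may be technical.

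**Figure D2:**
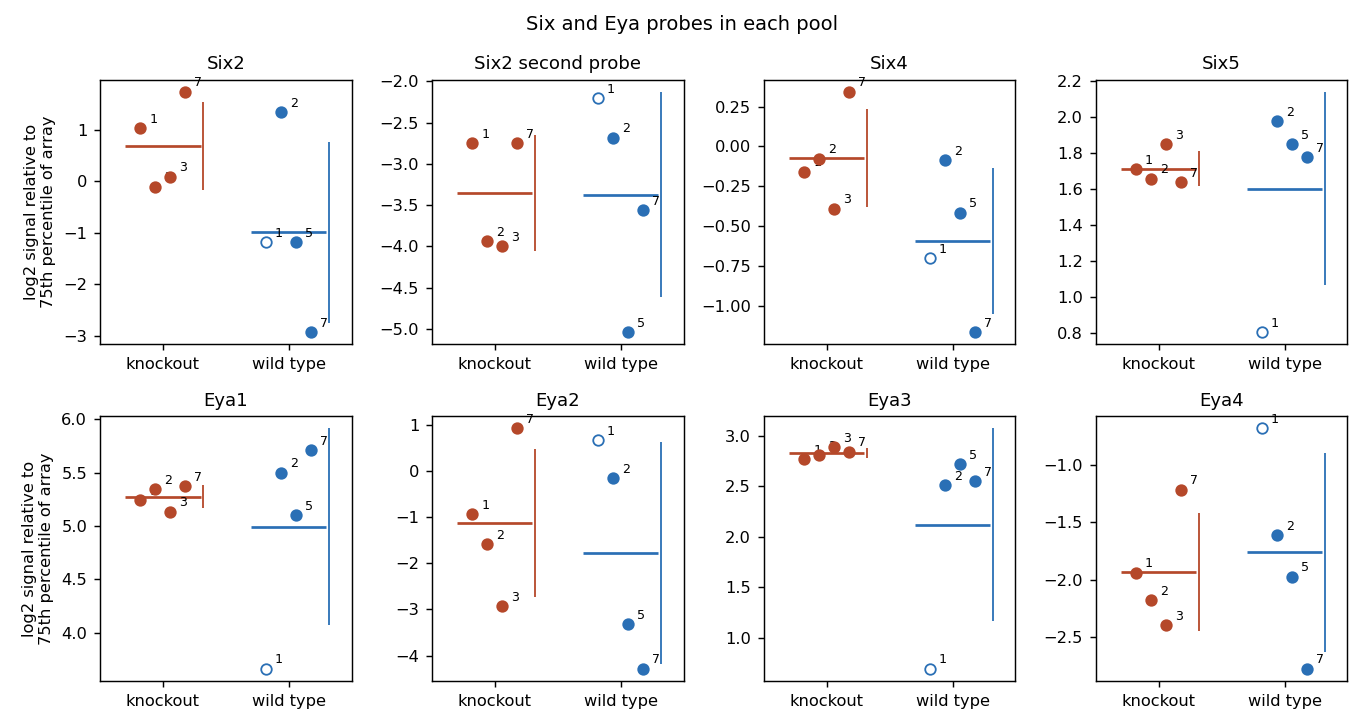
Signal on a log2 axis with the 75th percentile of each array at 0, for the 8 Six-family and Eya probes, with 1 point per pool labelled by its pool number, the group mean as a horizontal line and its SD as a vertical line (n = 4 per group). Wild type pool 1 is the open circle. Of the 7 genes, Eya3 alone has every knockout pool above every wild type pool.

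Six2, a transcription factor of kidney progenitors that also marks a part of the second heart field, had the largest difference of the set on its brighter probe. This probe (chromosome 17, 86083634 to 86083693) had log2 values of 1.03, -0.11, 0.084 and 1.73 in the knockouts. The wild types read -1.19, 1.33, -1.18 and -2.93. Knockout pool 7 was the highest and wild type pool 7 the lowest, and wild type pool 2 lay among the high knockout pools, so the groups overlapped. Knockouts averaged 0.68 ± 0.86 (SD, n = 4) and wild types -0.99 ± 1.75 (SD, n = 4), a log2 fold change of 1.68 ± 0.84 (SE; limma adjusted p = 0.735, 95% interval -0.23 to 3.58). Without wild type pool 1 it was 1.61 ± 0.96 (SE; limma adjusted p = 0.567). The spread among wild type pools was wide, with the highest 19.2-fold over the lowest, against 3.58-fold among knockout pools.

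The second Six2 probe, placed 352 bases away on the same strand, did not show that difference. It read -2.75, -3.93, -3.995 and -2.75 in the knockouts and -2.20, -2.68, -5.04 and -3.56 in the wild types. Within the knockout group both probes were high in pools 1 and 7 and low in pools 2 and 3. In the wild type group both were high in pool 2, but the lowest pool was 7 for the brighter probe and 5 for the second. The second probe had a log2 fold change of 0.015 ± 0.64 (SE; limma adjusted p = 0.991) on all arrays and 0.40 ± 0.60 (SE; limma adjusted p = 0.827) without wild type pool 1. Taking the mean of both probes gave 0.85.

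The size of the Six2 difference, but not its sign, changed as single pools were left out. Removal of wild type pool 2, the highest, ended the overlap of Six2, which removal of any other pool did not. No other wild type pool lay above any knockout value of Six2. The separation and the smaller SE therefore follow from leaving out wild type pool 2. With it left out and wild type pool 1 kept, Six2 and Six4, besides Eya3, had every knockout pool above every wild type pool. The Six2 log2 fold change in that fit was 2.45 ± 0.62 (SE; limma unadjusted p = 0.00439, adjusted p = 0.610). Six2 was then the 1 of 7 genes with an unadjusted p under 0.05, against 2.58% of all genes. Over all genes 9.11% did not overlap in that setting, 6.35% of all genes being higher in the knockouts, and no gene passed the test. The limma unadjusted p of Six2 was 0.0775 with 8 arrays and 0.137 without wild type pool 1. Leaving out wild type pool 7, the lowest, brought Six2 down to 1.03 ± 0.74 (SE; limma adjusted p = 0.570).

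Six4, a close relative that acts in muscle, nerve and kidney development, had a small difference in the same direction. Its log2 values were -0.16, -0.078, -0.39 and 0.34 in the knockouts and -0.70, -0.088, -0.42 and -1.17 in the wild types. Wild type pool 2 again lay among the knockout values, and wild type pool 7 was again the lowest. The log2 fold change was 0.52 ± 0.32 (SE, n = 4 per group; limma adjusted p = 0.735); on 7 arrays, leaving out wild type pool 1, it was 0.49 ± 0.28 (SE; limma adjusted p = 0.561). Its probe lies on chromosome 12 at 74201246 to 74201305.

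Six5, which lies beside the myotonic dystrophy kinase gene, was nearly level across pools. Its log2 values ran from 1.64 to 1.85 in the knockout pools and were 1.98, 1.85 and 1.78 in wild type pools 2, 5 and 7, with wild type pool 1 at 0.81. The difference was 0.11 ± 0.32 (SE; limma adjusted p = 0.854) with 8 arrays and had the other sign, -0.15 ± 0.10 (SE; limma adjusted p = 0.601), without that pool. The 95% interval without it, -0.39 to 0.084, holds only small differences, but with 8 arrays the interval was -0.61 to 0.83. Median scaling without that pool gave -0.38 ± 0.24 (SE). The Six5 probe lies on chromosome 7 at 19683437 to 19683496.

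Eya3, a broadly expressed member of the coactivator family, separated the groups by a small amount. The knockouts read 2.77, 2.81, 2.89 and 2.84 and the wild types 0.69, 2.51, 2.72 and 2.55 on the log2 scale. Every knockout pool lay above every wild type pool, and the knockout pools lay within 1.09-fold of each other. With 8 arrays the log2 fold change was 0.71 ± 0.45 (SE, n = 4 per group; limma adjusted p = 0.735). Without wild type pool 1 it was 0.23 ± 0.095 (SE), a 1.18-fold difference (limma unadjusted p = 0.0421, adjusted p = 0.460). Such separation was found in 5.49% of all genes with 8 arrays (3.94% higher) and in 11.4% without wild type pool 1 (6.57% higher). Of the separated genes 962 were higher and 376 lower in the knockouts, but 106 and 162 under scaling by the array median. Without wild type pool 1 they were 1561 and 1158, but 193 and 2610 under that scaling. With it Eya3 overlapped in both fits, and its difference without wild type pool 1 was 0.011. The probe lies on chromosome 4 at 132280589 to 132280648.

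Eya2, a member with strong expression in epithelial placodes and pharyngeal tissue, had the widest spread between knockout pools. Log2 values in the knockouts were -0.94, -1.58, -2.93 and 0.92, and those in the wild types were 0.67, -0.16, -3.32 and -4.29. Each group held high and low pools, with the highest 14.5-fold over the lowest among knockout pools and 17.5-fold among wild type pools 2, 5 and 7, where Six2 had 19.2-fold. The log2 fold change was 0.64 ± 1.22 (SE, n = 4 per group; limma adjusted p = 0.787); on 7 arrays, leaving out wild type pool 1, it was 1.46 ± 1.18 (SE; limma adjusted p = 0.669). It turned negative, at -0.043 and -0.20, on leaving out pool 7 of the knockouts or pool 7 of the wild types, respectively. The 95% interval of -2.12 to 3.40 with 8 arrays leaves large differences in either direction possible. The Eya2 probe lies on chromosome 2 at 165597072 to 165597131.

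Eya4, a member known for its role in hearing and in heart muscle disease, had log2 values of -1.94, -2.18, -2.40 and -1.22 in the knockouts. The wild types read -0.68, -1.61, -1.97 and -2.78, so the groups overlapped throughout. Its log2 fold change changed sign with wild type pool 1, from -0.17 ± 0.47 (SE; limma adjusted p = 0.849) to 0.19 ± 0.36 (SE; limma adjusted p = 0.858). The probe (chromosome 10, 22824002 to 22824061) was dim, but well above background on all 8 arrays, as all member probes were.

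The Eya1 probe had a log2 fold change of 0.28 ± 0.44 (SE; limma adjusted p = 0.756) with 8 arrays and -0.16 ± 0.16 (SE; limma adjusted p = 0.726) without wild type pool 1. The 51 other GT repeat probes had a median of 0.38 and of -0.055. All 51 were positive with 8 arrays, and 34 were negative without that pool. This change of sign was not particular to repeat probes. All 8 heart muscle markers, which are also bright, were positive with 8 arrays and negative without that pool. Eya1 is the member tied to branchial arch, ear and kidney malformations.

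**Figure D3:**
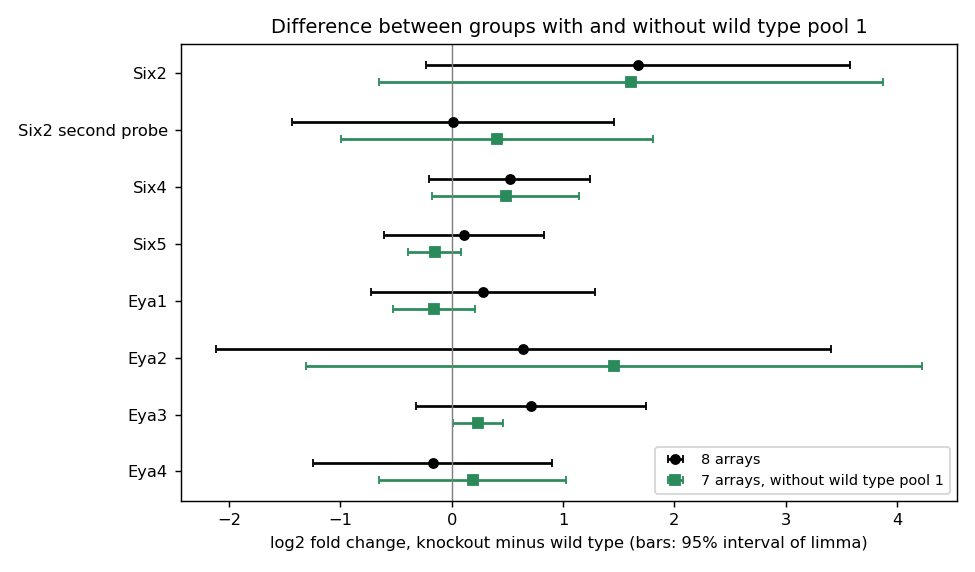
Log2 fold change, knockout minus wild type, of the 8 Six-family and Eya probes with 8 arrays (black) and with 7 arrays, without wild type pool 1 (green), with 95% intervals from limma. All intervals with 8 arrays include 0, and without that pool the interval of Eya3, 0.011 to 0.46 before adjustment, is the one that does not.

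Over the set, 0 of 7 genes had a limma adjusted p under 0.05 with 8 arrays, as did 0% of 24388 genes tested. By limma's unadjusted p, 0 of 7 were under 0.05 with 8 arrays, against 1.78% of all genes, and 1 of 7, Eya3, without wild type pool 1, against 10.6%. With arrays weighted by their quality, 8 genes passed and none of them was a Six-family or Eya gene. The log2 fold change was positive for 6 of 7 genes with 8 arrays, against 57% of all genes, and for 5 of 7 without wild type pool 1, against 59.3%. The median of the 7 was 0.52, beside 0.13 over all genes, and 0.23, beside 0.053, without that pool. Scaling by the array median moved the median over all genes to 0.69 with 8 arrays, a shift of every log2 fold change by the same amount. With it, 7 of 7 members and 20216 of 24388 genes were positive. Under that scaling without wild type pool 1, 4 of 7 members and 5730 of 23762 genes were positive. The set's median less that of all genes was 0.39 with 8 arrays, but 0.091 with quantile scaling, 0.15 with normexp background, 0.11 without knockout pool 7 and 0.12 without wild type pool 5.

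Six2, Six4, Eya2 and Eya4 were each highest in knockout pool 7 and lowest in wild type pool 7 among the 7 pools other than wild type pool 1. These pools therefore hold both ends of the range of these 4 genes, which were on average the dimmest of the set. The share of all genes with this order was not counted. Among these 7 pools, knockout pool 7 had the largest share of spots well above background (63.2%) and wild type pool 7 the smallest (53.3%). The median of all probes was -3.52 in knockout pool 7 and from -4.27 to -4.10 in the rest of the 7. Whether dim probes in general had this order was not tested. Centred on each gene's mean over the 7 arrays, Six2 stood at 1.74 in knockout pool 7 and -2.92 in wild type pool 7, Eya2 at 2.68 and -2.53, Six4 at 0.62 and -0.89, and Eya4 at 0.80 and -0.77. Six2 and Eya2 had a mean absolute difference of 0.53 in these centred values.

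Epithelial markers varied alongside Eya2 from pool to pool. The gene next to Eya2 by pattern was Ano9, an anoctamin membrane protein (mean absolute difference 0.20), and then Epcam, a cell adhesion molecule of epithelia (0.23), against a median of 1.496 over all genes. Ano9 and Epcam were each well above background on 6 of 8 arrays, so these differences rest in part on values at background. Epcam read -3.20, -3.54, -5.71 and -1.53 in the knockouts and 0.74, -2.34, -5.17 and -6.64 in the wild types on the log2 scale. Like Eya2 it was high in knockout pool 7 and wild type pool 2 and low in knockout pool 3 and wild type pools 5 and 7. Cldn6, Cdh1, Foxa2 and Nkx2-1, the other epithelial markers that varied widely, were low in knockout pool 3 and wild type pools 5 and 7 too. The pattern was not particular to epithelial markers. Centred on each gene's mean over the 7 arrays, 6 erythroid markers had medians of 0.30, 1.07, -0.59 and 0.57 in the knockouts. In wild type pools 2, 5 and 7 they had 0.93, -1.36 and -0.70. Tbx1, centred alike, stood at -0.41 in knockout pool 3 and at 1.70, -1.25 and -2.06 in those wild type pools.

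All 8 listed markers of pharyngeal and surface epithelium were measured. Their summed level, on a linear scale with the 75th percentile at 1, ran from 36.7 to 58.3 in the knockout pools. It ran from 45.0 to 69.0 in wild type pools 2, 5 and 7, with wild type pool 1 at 24.9. Without Krt8 and Krt18 it ran from 5.96 to 8.11 in the knockout pools and from 6.14 to 6.74 in the wild type pools. In the pools other than wild type pool 1, most of that smaller sum was Trp63, at log2 values of 2.32 to 2.66. It therefore says little about the markers that varied widely. The median of the 8 centred markers, which does not lean on bright probes, was 0.24, 0.34, -1.62 and 1.90 in the knockouts. In the wild types it was 1.96, 1.76, -0.85 and -1.44. Wild type pool 1 was thus the lowest of all pools by the full sum and the highest by this median. On that array bright probes read low and dim probes read high, so neither value is read as a level of epithelium. The keratins Krt8 and Krt18, which heart tissue also makes, and Trp63 did not follow Eya2, and were each highest in wild type pool 7. None of the 8 was at 0, but Epcam, Nkx2-1 and Cldn6 were not well above background in knockout pool 3 and wild type pool 7. The part of the epithelium in the Eya2 values was not tested. In pools of tissue, fewer cells of a type and less RNA per cell cannot be told apart.

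**Figure D4:**
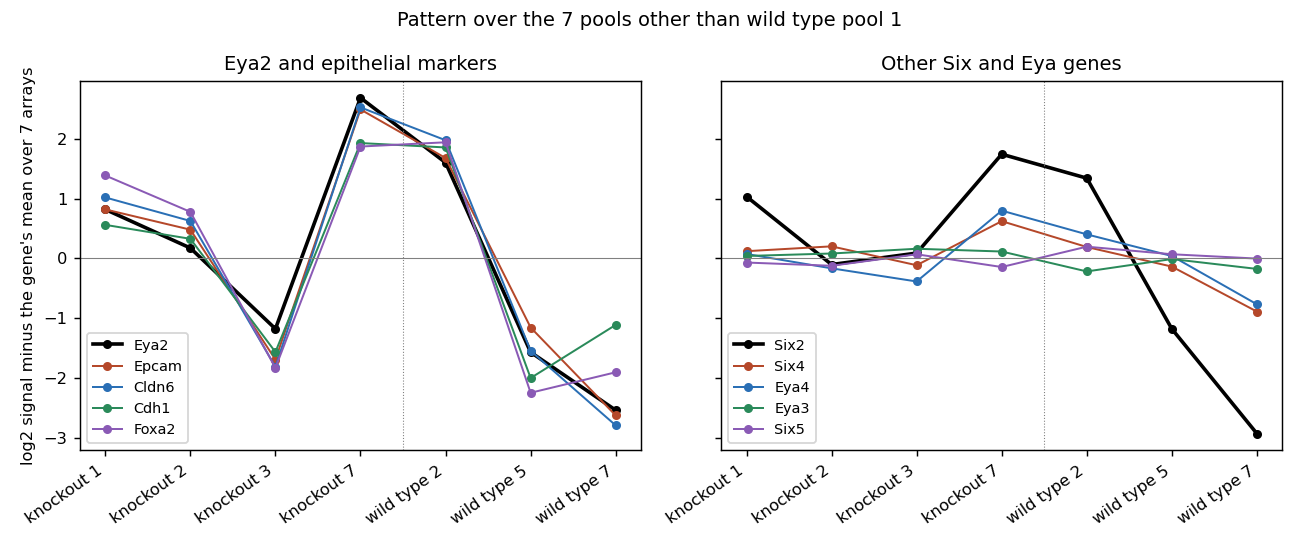
Log2 signal minus the gene's mean over 7 arrays (vertical axis) in the 7 pools other than wild type pool 1 (horizontal axis), for Eya2 with 4 epithelial markers (left) and for Six2, Six4, Eya4, Eya3 and Six5 (right). Eya2 and the markers are high in knockout pool 7 and wild type pool 2 and low in knockout pool 3 and wild type pools 5 and 7, while Eya3 and Six5 stay within 0.22 of their means.

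The genes most like each other member were found in the same way. For Six2 they were Bmpr1b, a BMP receptor (mean absolute difference 0.27), and Hoxa3, a Hox gene of the pharyngeal region (0.30), against a median of 1.22 over all genes. Six4 was most like Rflnb (0.040) and the zinc finger gene Zfhx4 (0.078), against a median of 0.36. Eya4 was most like Fbxw25 (0.073) and Twist2, a transcription factor of mesenchyme (0.11), against 0.40. Eya3 was most like Angel2 and Sntb2, both at 0.019, against 0.20, and Six5 was most like Slc22a28 (0.034) and Krtap5-3 (0.036), against 0.21. Bmpr1b and Fbxw25 were well above background on 7 of 8 arrays, so their differences include a value at background. For nearly level genes such as Eya3 and Six5, a small difference says mostly that both are level.

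The partners of Six-family and Eya proteins were taken from a list of 34 genes by role, of which 29 were tested. No gene of the list passed (limma, 0 of 29 also by unadjusted p, with and without wild type pool 1), and none separated the groups. Over all genes 1.78% and 10.6% had an unadjusted p under 0.05, and 5.49% and 11.4% separated the groups, with and without that pool. The log2 fold change was positive for 20 of 29 with 8 arrays (57% of all genes), with a median of 0.29 (0.13 over all genes). Without that pool it was positive for 19 of 29 (59.3% of all genes), with a median of 0.17 (0.053 over all genes).

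Among upstream and downstream genes, Tbx1, a T-box gene of pharyngeal tissue, read 1.75, 2.39, 1.24 and 2.81 in the knockouts and -0.45, 3.34, 0.39 and -0.42 in the wild types on the log2 scale. Wild type pool 2 was the highest of all 8, as it was the highest wild type pool for Six2 and Six4, and the log2 fold change was 1.33 ± 0.83 (SE; limma adjusted p = 0.735), or 0.94 on 7 arrays. Slc12a2, an ion cotransporter that Six-family proteins can regulate, had a log2 fold change of 0.66 ± 0.49 (SE; limma adjusted p = 0.735), or 0.17 on 7 arrays. Of the 11 tested in this group, 8 were positive with 8 arrays and 6 without that pool. The muscle factors Myog, Myod1 and Myf5 were not tested, as their probes were too dim.

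Of the 4 Dach and Ski corepressors, 3 were positive in both fits. Dach1, the partner that joins Six-family and Eya proteins in repression, had 0.71 ± 0.44 (SE; limma adjusted p = 0.735), or 0.33 on 7 arrays, and Skil had 0.68 and 0.11. Of 9 other proteins that bind Six-family or Eya, 8 were positive with 8 arrays and 6 without that pool. The corepressor Tle1 had 1.03 ± 0.52 (SE; limma adjusted p = 0.735) and 0.53, and Pa2g4 had 0.81 and 0.26.

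The Pax genes, whose products act upstream of or beside Six-family and Eya proteins, differed in part between the fits. Of 5 tested, 3 (Pax3, Pax6 and Pax8) had the other sign without wild type pool 1. In all, 4 were negative with 8 arrays and 4 were positive without wild type pool 1, with medians of -0.068 and 0.71. Pax2 had -1.53 ± 1.12 (SE; limma adjusted p = 0.735), and -0.29 without that pool. Its log2 values ran from -4.95 to -2.95 in the knockout pools and from -4.44 to -3.59 in wild type pools 2, 5 and 7, with wild type pool 1 at 0.91. Pax6 had -0.23 and 0.63. Pax1 and Pax7 were too dim to test.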

How the data were processed

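Each pool was hybridised to 1 array of a single slide. The authors deposited linear intensities from Agilent Feature Extraction 10.7.3.1, background-subtracted and detrended within the array, per the file headers; they were not scaled between arrays. Values of knockout pool 1 carried 3 significant digits. Here spots of 1 probe were averaged (55681 probes, 26056 named through the RefSeq table and the others by the file), and log2 values were taken relative to the array's 75th percentile. Probes entered the fit if 3 or more arrays of either group had them well above background (33438 probes); the brightest kept probe stood for its gene (24388 genes). Groups were compared with limma 3.58.1 in R 4.3.3 (lmFit, eBayes, two-sided), adjusted by Benjamini-Hochberg over all genes; the threshold was 0.05. The number of arrays limits the precision. The fit was tested on simulated data.

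The members, the gene lists and the exclusion of wild type pool 1 were chosen with earlier results of these data known. Named genes are all members, Aldh1a2, the 2 genes of each partner group with the smallest unadjusted p, and the 2 symbols nearest each member in pattern (the smallest mean absolute difference of centred log2 values over 7 arrays). Epithelial markers other than Epcam, the erythroid markers, Pax3, Pax8, and the dim muscle and Pax genes were chosen for naming after values were seen. So was the count of GT repeat probes with its minimum of 20 bases. Alternatives were normexp with an offset of 50, scaling by median or quantiles, the deposited matrix, looser and stricter filters, averaged probes, trend and robust eBayes, array weights, blocks by pool number or slide column, and each pool left out.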

Additional observations from a re-analysis of the deposited data

Results flagged for a closer look

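Of 18 groups of 4 pools checked (8 member probes and Aldh1a2, in each genotype), 3 had a pool far from the other 3. Independent groups would give about 1 in 20 by chance, but these groups share the same arrays, so that rate does not apply directly. The flags of Six5 and Eya3 both fall on wild type pool 1, where bright probes in general read low. Six5 in wild type pool 1 stood at 0.81 on the log2 scale relative to the array's 75th percentile, below the other wild type pools. Eya3 in wild type pool 1 stood at 0.69, below the others, which ran from 2.51 to 2.72. Aldh1a2 in knockout pool 7 stood at 0.059, below the other knockout pools. This was the knockout pool with the highest Six2, Six4, Eya2 and Eya4.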

How the results depend on the processing

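Six2, Six4 and Eya3 kept a positive sign in all 23 alternatives, with ranges of 0.85 to 2.45, 0.26 to 1.08 and 0.011 to 1.27, and no member passed in any. As each pool was left out, Six2 ran from 1.03 to 2.45, Six4 from 0.33 to 0.69, Six5 from -0.15 to 0.24, Eya1 from -0.16 to 0.52, Eya2 from -0.20 to 1.46, Eya3 from 0.23 to 0.91 and Eya4 from -0.51 to 0.19. Signs turned with quantile scaling (Six5 -0.19, Eya1 -0.23, Eya4 0.26), array weights (Six5 -0.16, Eya1 -0.12, Eya4 0.030) and median scaling (Eya4 0.38). The last is a shift of all genes alike: less the median of all genes, Eya4 was at -0.30 under both scalings. Leaving out wild type pool 1 alone had already turned these signs (Six5 -0.15, Eya1 -0.16, Eya4 0.19). Without that pool, Six5 and Eya1 stayed negative with median scaling (-0.38 and -0.38) and quantile scaling (-0.17 and -0.16). They also did so with normexp (-0.14 and -0.16) and the replicate block (-0.23 and -0.24). Eya4 stayed positive with quantile scaling (0.13), normexp (0.064) and the block (0.50), but was at -0.035 with median scaling. The cause of these changes of sign was not tested.

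Over all genes, 8 passed with array weights and 21 with median scaling without wild type pool 1, and 0 otherwise. The 1338 genes without overlap became 268 with median scaling and 1576 to 3420 with a pool left out, most without wild type pool 5. Without wild type pool 1 they were 2803 with median scaling, 2878 with quantile scaling, 2493 with normexp and 2719 with the block. The count of members without overlap, 1, became 0 with median scaling, with or without wild type pool 1, and 3 without wild type pool 2.

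Pools 1, 2 and 7 occur in both groups. The labels state no pairing, so the numbers were not taken as pairs. Their deviations from the group means correlated at -0.15, 0.32 and -0.41. The wild type means include wild type pool 1, so these correlations cannot decide whether the pools were paired. With pool number as a replicate block Six2 was at 1.81 and 0 genes passed.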
